A study of Mus musculus with 4 samples.

Results

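The endoplasmic reticulum (ER) chaperones and the genes of the unfolded protein response were followed as 33 genes, among the 55401 gene rows of the count table, chosen by gene symbol. All 33 symbols were present, on 34 rows, since a second row named Ddit3 was at 0 in every library and was left out. All 33 genes passed the filter on low counts. Messenger RNA was sequenced from P14 CD8+ T cells of mouse spleen, whose transgenic receptor recognises lymphocytic choriomeningitis virus (LCMV), after infection with LCMV Armstrong. In the empty vector group the cells carried a control vector, and in the Hic1 vector group a vector for overexpression of the transcriptional repressor Hic1 (2 libraries each, 4 in all). The sample labels place the cells at day 32 after infection and the series text at day 7, so the time point is given both ways. The age of the mice is not given in the sources used here, and forced expression from a vector need not match the level of Hic1 that a T cell reaches by itself.

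Secreted and membrane proteins, among them cytokines, granzymes and receptors of T cells, are folded in the ER. There the HSP70 chaperone BiP (Hspa5) works with J-domain co-chaperones, disulfide isomerases form disulfide bonds, and the lectins calnexin and calreticulin hold glycoproteins until they are folded. Proteins that fail to fold are sent back to the cytosol for degradation by the proteasome. When unfolded proteins build up, the sensors IRE1 (Ern1), ATF6 and PERK raise the transcription of these same genes, through the factors XBP1, ATF6 and ATF4.

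Promoters of such genes carry the ER stress response element ERSE (CCAAT, then 9 bases of any kind, then CCACG), which ATF6 and XBP1 bind with the factor NF-Y, or its variant ERSE-II (ATTGG, then 1 base of any kind, then CCACG). The sites are shown because the genes that share them can then be set side by side in the counts. RefSeq promoter windows (GRCm38.p6, 300 bases, 250 before to 50 after the annotated start) were found for 27 of the 33 genes, and both strands were searched. ERSE was found in 8 of the 27 genes (29.6%), against 37 of 27025 genes with a window (0.137%) and 13 of the 8467 of these that passed the filter on low counts (0.154%). ERSE-II was found in 2 of the 27 genes, Dnajb11 and Herpud1, against 12 of 27025 (0.0444%) and 9 of 8467 (0.106%). Genes of this kind are textbook targets of these elements, so the shares are a description of the list. The 9 ERSE matches, each with 5 flanking bases and read along the strand of the motif, were the following, with CCAAT and CCACG in capitals.
Hspa5 (chr2:34772025-34772043, plus strand): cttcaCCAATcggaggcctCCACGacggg
Hsp90b1, site nearer the start (chr10:86705533-86705551, plus strand): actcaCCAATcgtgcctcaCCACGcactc
Hsp90b1, site farther from the start (chr10:86705638-86705656, minus strand): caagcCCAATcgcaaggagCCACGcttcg
Dnajc3 (chr14:118937827-118937845, plus strand): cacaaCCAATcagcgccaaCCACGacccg
Pdia6 (chr12:17266491-17266509, plus strand): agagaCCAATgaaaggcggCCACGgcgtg
Calr (chr8:84847075-84847093, plus strand): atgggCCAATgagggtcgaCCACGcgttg
Canx (chr11:50325800-50325818, minus strand): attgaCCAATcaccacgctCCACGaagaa
Creld2 (chr15:88819520-88819538, minus strand): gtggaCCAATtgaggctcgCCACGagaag
Syvn1 (chr19:6046532-6046550, plus strand): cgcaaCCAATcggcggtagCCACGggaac

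The promoters of Dnajb11 and Herpud1 are shown at greater length, because they share ERSE-II and their fitted differences, given further on, have opposite signs. Each is read along the gene (plus strand in both), from 170 bases before to 30 bases after the RefSeq start, with ERSE-II in capitals.
Dnajb11 (chr16:22857675-22857874): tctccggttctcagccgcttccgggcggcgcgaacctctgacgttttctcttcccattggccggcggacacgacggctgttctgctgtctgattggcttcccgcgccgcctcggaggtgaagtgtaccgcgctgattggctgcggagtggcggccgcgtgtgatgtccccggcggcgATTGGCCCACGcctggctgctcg
Herpud1 (chr8:94386259-94386458): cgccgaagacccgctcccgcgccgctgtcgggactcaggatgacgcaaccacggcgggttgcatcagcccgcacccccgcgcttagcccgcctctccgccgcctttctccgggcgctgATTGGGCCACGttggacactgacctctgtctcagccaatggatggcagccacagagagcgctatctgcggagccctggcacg
In Dnajb11 the element lies 8 to 18 bases past the start, and in Herpud1 it lies 52 to 42 bases before it. The ATF6 and XBP1 core TGACGTGG was in none of the 27 genes with a window (0.714% of all genes with a window, 1.03% of those that passed the filter). The C/EBP-ATF element TGATGNAA was in Herpud1 alone (3.70% of the 27, against 4.51% and 2.70%). Of 2 short HIC1 core motifs, TGCCCA was in P4hb and Ssr3 (7.41% of the 27, against 21.6% and 20.0%). GGGCACC was in Hsp90b1, Pdia4 and Herpud1 (11.1%, against 5.22% and 6.22%). Neither HIC1 core motif was in the window of Dnajb11. CCACG, which is part of both ER stress elements, was in 21 of the 27 (77.8%, against 35.5% and 52.7%).

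Depth went with the group, at 4017346 and 3941364 gene counts in all with the empty vector and 7501285 and 8839317 with the Hic1 vector. Hic1 itself had 3 and 5 counts with the empty vector against 314 and 161 with the Hic1 vector. The CD8 T cell markers (9 of 9 genes with a count) summed to 5870 to 6116 CPM (counts scaled to a common library size) against 6437 to 7231 CPM. Plasma cells are rich in ER chaperones, and their markers were checked for that reason. Mzb1 and Ighg2b were at 0 in all libraries and Jchain had 0 to 6 counts. Igkc had 14 and 28 counts with the empty vector against 14 and 31 with the Hic1 vector, and Ighg2c 0 and 0 against 10 and 4. The summed plasma cell list (6 of 8 genes with a count, most of it Prdm1, which effector T cells also express) lay at 41 and 52.2 against 40.4 and 36.9 CPM. The summed B cell list (8 of 8 genes with a count) lay at 84.2 and 96.4 against 283 and 216.6 CPM, most of it Ighm (61.4 and 84.4 against 237.9 and 197.1 CPM), while Ms4a1 had 0 to 2 counts. Its part in the differences below was not tested. The libraries numbered 1 held 1885 and 3590 counts of Xist, the sex-linked transcript of female cells, and those numbered 2 held 0 and 3. Counts of the Y-linked Eif2s3y were 0 and 0 in the libraries numbered 1 and 396 and 951 in those numbered 2. The numbers thus also separate female from male cells. For this reason the main values below stand beside those taken inside a replicate number. The 2 replicates of a group thus came from mice of different sex. The main fit did not use the replicate number, so that difference is part of its spread. Whether same-numbered libraries share a mouse is not stated in the labels, and a p-value speaks of the spread among these libraries. Exons of 11 of the 33 genes overlap those of another annotated gene, and the sources used here do not say whether the counting used strand. In bulk libraries, fewer cells of a kind and less RNA per cell cannot be told apart.

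Of the 33 genes, 1 passed the test between the groups. Dnajb11 RNA, which encodes the BiP co-chaperone ERdj3, was 2.43-fold lower with the Hic1 vector (95% interval of the log2 fold change -1.67 to -0.89). The remaining 32 genes missed the threshold. A log2 fold change within 0.5 of 0 was found for 30 of the 33 (90.9%), against 69.2% of all genes tested. Calls were made by edgeR's quasi-likelihood test at a Benjamini-Hochberg adjusted p below 0.05 over all 11676 genes tested, of which 1.82% passed (1.1% lower, 0.719% higher). Of the 213 genes that passed, 39.4% were higher with the Hic1 vector, and with library sizes alone, without TMM scaling, 21.8% of 321 were. DESeq2 and limma voom also called Dnajb11 and no other of the 33. The median log2 fold change of the 33 genes was -0.05, against 0.01 for all genes tested, with 15 above and 18 below 0. The number above 0 was 9 with library sizes alone and 18 with no filter on low counts. After removal of a trend with GC content, 6 of the 33 values changed sign and a further 15 moved by more than 1.5 times, while Dnajb11 stood at -1.28. The groups did not overlap in CPM for 20 of the 33 genes, 8 higher and 12 lower with the Hic1 vector. Among all genes tested 51.4% did not overlap, 26.5% higher and 24.9% lower, so the members' 24.2% and 36.4% are read against those shares. At an unadjusted p below 0.05 there were 5 of the 33 (2 higher, 3 lower), or 15.2%, against 19.1% of all genes tested (9.41% higher, 9.7% lower). The counts by role given below are read against the same share. A p that misses the threshold does not show that a gene was unaltered, and the intervals give the size of change the data leave room for. For 30 of the 33 genes (90.9%) the whole 95% interval lay inside a log2 fold change of -1 to 1, against 52.1% of all genes tested. The exceptions were Dnajb11, Hyou1 and Xbp1. The members' higher counts bear on this, with a median of 115.4 CPM against 25.6 CPM for all genes tested.

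**Figure D1:**
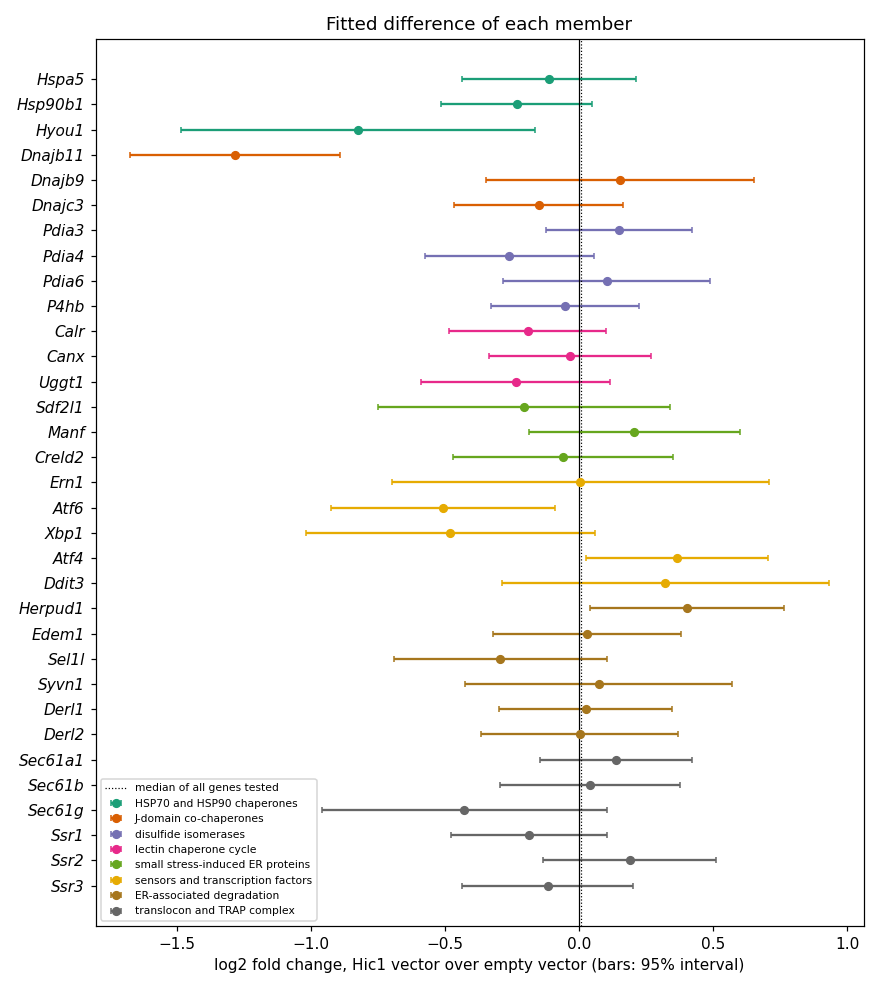
Fitted log2 fold change of each of the 33 genes, Hic1 vector over empty vector (x axis), with bars for the 95% interval and colours for the roles; the dotted line is the median of all genes tested. Dnajb11 stands at -1.28 with its interval from -1.67 to -0.89, and 30 of the 33 intervals lie between -1 and 1.

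The J-domain co-chaperones, which bring unfolded proteins to BiP and start its ATPase cycle, did not move together. Dnajb11 (ENSMUSG00000004460.17, chromosome 16, positions 22857845 to 22879634, plus strand, mm10) had 788 and 800 counts with the empty vector and 667 and 589 with the Hic1 vector, although the Hic1 vector libraries were deeper. Scaled to library size, this was 191.3 and 199.9 CPM against 93.9 and 67.1 CPM. Both Hic1 vector libraries lay far below both empty vector libraries, which differed from each other by a factor of 1.04. The log2 fold change was -1.28 ± 0.179 (SE), with an adjusted p of 0.0109 (edgeR), and the gene ranked 13 by p among the 11676. The log2 difference was -1.02 between the libraries numbered 1 and -1.57 between those numbered 2. No exon of another annotated gene overlaps those of Dnajb11 in GENCODE M21. With empty vector replicate 1 left out, its log2 value was -1.31 and the adjusted p 0.0624, and 8 genes in all passed then, against 213 with every library. Dnajb11 passed in the other 14 of 15 alternatives, with log2 values from -1.54 to -1.05 and adjusted p from 8.07e-10 to 0.0206.

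Dnajc3, which encodes the co-chaperone p58IPK, was at 183.3 and 175.1 CPM with the empty vector and at 166.8 and 156.2 CPM with the Hic1 vector. The groups did not overlap, but the log2 fold change of -0.15 ± 0.144 (SE) did not pass (adjusted p = 0.624, edgeR). Dnajb9, which encodes ERdj4, a co-chaperone that binds IRE1, was at 28.9 and 28.7 against 32.8 and 31.3 CPM, with a log2 value of 0.15 ± 0.229 (adjusted p = 0.769, edgeR). Of the 3 co-chaperones, Dnajb9 alone was above 0, and Dnajc3 turned to 0.015 after removal of the GC trend. Per kilobase of exon, Dnajb11 was the most abundant of the 3 with the empty vector (60.4 CPM per kilobase against 34.9 for Dnajc3 and 11.3 for Dnajb9). With the Hic1 vector Dnajc3 was the most abundant, at 31.4 against 24.9 CPM per kilobase for Dnajb11. The length used is that of all annotated exons of a gene together, and an order per kilobase can depend on it.

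The HSP70 and HSP90 chaperones of the ER did not pass, and Hyou1 had the second lowest log2 fold change of the 33 genes. Hspa5, the central chaperone and regulator of the stress sensors, was at 366.5 and 445.2 CPM against 409.8 and 340.8 CPM. The groups overlapped, and the log2 fold change was -0.11 with a 95% interval of -0.44 to 0.21. Set against Hspa5 in the same library, per kilobase, Dnajb11 stood at 0.682 and 0.587 with the empty vector and at 0.299 and 0.257 with the Hic1 vector. The ratio of Dnajc3 to Hspa5 overlapped between the groups (0.411 and 0.324 against 0.335 and 0.377). A ratio of this kind shows unequal change of the pair and not which of them moved.

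Hsp90b1, which encodes GRP94, a chaperone of integrins and Toll-like receptors, was at 539.6 and 563.6 against 438.1 and 500.5 CPM. Its groups did not overlap, and its log2 fold change of -0.23 ± 0.129 (SE) did not pass (adjusted p = 0.357, edgeR). After removal of the GC trend the value of Hsp90b1 was -0.05. Hyou1 (ENSMUSG00000032115.14, chromosome 9, positions 44379490 to 44392369, plus strand, mm10), which encodes the nucleotide exchange factor GRP170 of BiP, had 180 and 125 counts against 190 and 138. In CPM this was 43.7 and 31.2 against 26.8 and 15.7, with no overlap but a wide spread inside each group. The log2 fold change was -0.82 ± 0.301 (SE), with an unadjusted p of 0.0188 and an adjusted p of 0.171 by edgeR. It passed in 3 of 15 alternatives, namely without Hic1 vector replicate 1 (-1.25, adjusted p = 0.0484) and in both fits with the replicate number as a block. Within replicate numbers 1 and 2 the log2 differences were -0.70 and -0.97. With the empty vector Hyou1, which has 7230 exon bases, ranked 32 of the 33 in CPM per kilobase. Its counts there, 180 and 125, were below the 1510 and 1782 of Hspa5.

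**Figure D2:**
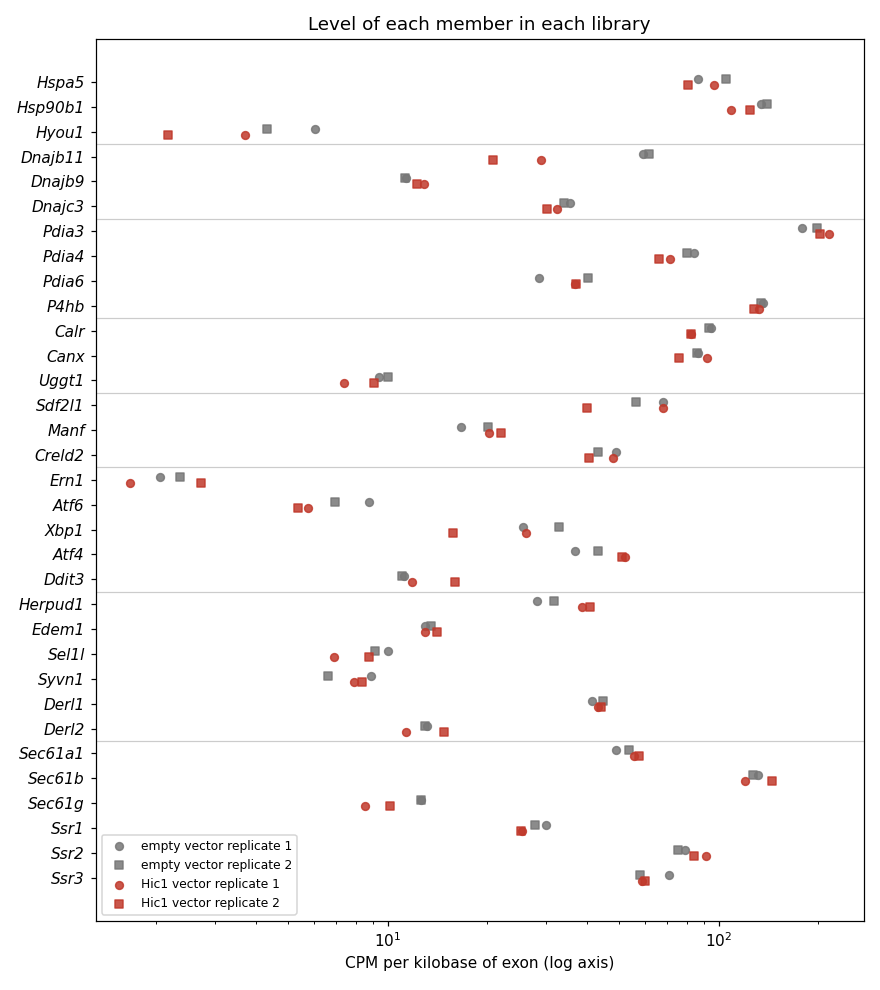
Level of each gene in each library, in CPM per kilobase of exon on a log axis, with grey for the empty vector, red for the Hic1 vector, circles for replicate 1 and squares for replicate 2; lines part the roles. The Dnajb11 points of the Hic1 vector lie to the left of those of the empty vector, while most genes have the 4 points close together.

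Disulfide isomerases, which form and rearrange disulfide bonds, did not pass in any of 4 genes by edgeR, and 0 of the 4 had an unadjusted p below 0.05. Pdia3, the isomerase that works with calnexin and calreticulin and in the loading of MHC class I, had the highest level of all 33 genes, 188.4 CPM per kilobase with the empty vector and 209 with the Hic1 vector. It was at 560.7 and 622.1 against 674.4 and 637.4 CPM, without overlap, and its log2 fold change was 0.15 ± 0.124 (SE, adjusted p = 0.557, edgeR). P4hb, the classical protein disulfide isomerase, was at 388.1 and 383.5 against 378 and 365.9 CPM, and its log2 value of -0.05 ± 0.127 (adjusted p = 0.87, edgeR) was within its SE of 0. Pdia4 was at 202.4 and 192.4 against 171.5 and 158.4 CPM, with a log2 value of -0.26 ± 0.144 (adjusted p = 0.357, edgeR). Pdia6, which acts on IRE1 among other clients, was at 107 and 150.6 against 138.3 and 138.6 CPM, and its groups overlapped. Pdia3 and Pdia6 were above 0 and P4hb and Pdia4 below, and P4hb turned to 0.011 with no filter on low counts.

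The lectin chaperone cycle had 3 genes, all with log2 values below 0 and none past the threshold (0 at an unadjusted p below 0.05, edgeR). Calr, the soluble lectin calreticulin, was at 273.6 and 270.1 CPM with the empty vector and at 237.9 and 237.9 with the Hic1 vector. The replicates of Calr nearly coincided, and the fit, which shares its estimate of spread over genes, gave a log2 fold change of -0.19 ± 0.133 (SE, adjusted p = 0.471, edgeR). Canx, the membrane-bound lectin calnexin, was at 405.1 and 404.7 against 433.6 and 356.9 CPM and overlapped. Uggt1, the glucosyltransferase that marks unfolded glycoproteins for another round, was at 121.1 and 128.7 against 94.9 and 116.9 CPM, with a log2 value of -0.24 ± 0.161 (adjusted p = 0.46, edgeR). The value of Canx turned to 0.14 after removal of a GC trend, so a shared direction of the 3 genes depends on that step.

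Of the small stress-induced proteins of the ER, 0 of 3 passed by edgeR, and 0 had an unadjusted p below 0.05. Manf, a secreted factor that binds BiP, was at 58.5 and 71 against 71.5 and 77.7 CPM. Its groups were parted by a narrow margin, and the log2 value of 0.21 ± 0.181 (SE) did not pass (adjusted p = 0.58, edgeR). Exons of Manf overlap those of Dcaf1 by 146 bases on the opposite strand, and without strand the reads of the pair cannot be told apart there. Sdf2l1, a component of BiP complexes, was at 75 and 62.2 against 75 and 44.3 CPM, and Creld2, an isomerase-like protein, at 66.8 and 59.2 against 65.5 and 55.5 CPM. Both overlapped between the groups.

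The sensors and transcription factors had values of different sign, and none of the 5 genes passed by edgeR. An unadjusted p below 0.05 was found for 2 of the 5, 1 on each side of 0, against 19.1% of all genes tested. Atf6, the membrane-bound factor released by cleavage in the Golgi, was at 81.3 and 64.2 CPM with the empty vector and at 52.9 and 49.6 with the Hic1 vector. Both Hic1 vector libraries were lower, and the log2 fold change was -0.51 ± 0.192 (SE), with an unadjusted p of 0.0217 and an adjusted p of 0.18 by edgeR. Within replicate numbers 1 and 2 the log2 differences of Atf6 were -0.62 and -0.37. Atf4, the factor translated under the integrated stress response, was at 86.9 and 101.9 against 122.9 and 120.2 CPM. Both Hic1 vector libraries were higher, with a log2 fold change of 0.36 ± 0.156 (SE), an unadjusted p of 0.0378 and an adjusted p of 0.229 by edgeR. The within-number differences of Atf4 were 0.50 and 0.24, and after removal of a GC trend the fitted value was 0.19. ATF4 is controlled mainly at translation and ATF6 by cleavage, so neither activity can be read from these counts.

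Xbp1, the factor made active when IRE1 splices its mRNA, was at 83.5 and 106.7 against 85.3 and 51.3 CPM. Hic1 vector replicate 2 alone was low, and the groups overlapped. The log2 fold change was -0.48 ± 0.241 (SE, adjusted p = 0.317, edgeR), with 0.03 within replicate number 1 and -1.05 within number 2. With 1 library left out it ran from -0.88 without Hic1 vector replicate 1 (adjusted p = 0.052, edgeR) to -0.15 without Hic1 vector replicate 2. Gene counts do not separate the spliced from the unspliced form. Ern1, which encodes IRE1 itself, had the lowest level of the 33 genes per kilobase (2.20 CPM per kilobase in both groups) and was at 16.7 and 19.2 against 13.7 and 22.3 CPM. Its interval of -0.70 to 0.71 was the widest of the 33. Ddit3, which encodes the death-promoting factor CHOP, was at 19.2 and 19 against 20.3 and 27.3 CPM, with a log2 value of 0.32 ± 0.279 (adjusted p = 0.575, edgeR). The groups of Ddit3 were parted by a margin of little over 1 CPM, and exons of Ddit3 share 68 bases with a gene on the opposite strand.

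Hic1 vector replicate 2 was the lowest library for 13 of the 33 genes, or 39.4%, against 26.1% of all genes tested. Xbp1, Sdf2l1, Hspa5, Hyou1, Canx and Creld2 were among them. Between the Hic1 vector replicates the higher CPM was 1.70 times the lower for Hyou1, 1.69 times for Sdf2l1 and 1.66 times for Xbp1. Without that library the log2 fold change was -0.48 for Hyou1, 0.13 for Sdf2l1, 0.019 for Hspa5 and 0.10 for Canx. That of Dnajb11 was -1.05 and still passed (adjusted p = 0.0118, edgeR). The members named here were picked after their values were seen, and no test was made of the pattern.

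**Figure D3:**
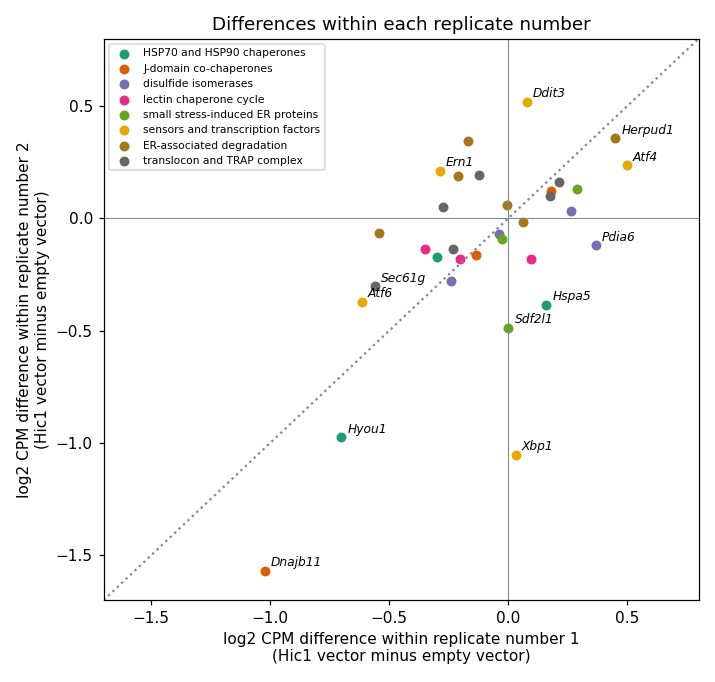
Difference in log2 CPM between the Hic1 vector and the empty vector within replicate number 1 (x axis) and within number 2 (y axis), 1 point per gene, coloured by role; the dotted line marks equal differences. Dnajb11 lies at -1.02 and -1.57, and Xbp1 at 0.03 and -1.05.

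Across the 33 genes the differences within the 2 replicate numbers had a Pearson correlation of 0.582 and a Spearman correlation of 0.453, and 0.41 and 0.4 without Dnajb11. Over all 11676 genes the values were 0.419 and 0.442. The sign was the same in both numbers for 21 of the 33 genes (63.6%), against 67.8% of all genes tested. These are descriptions across genes, which share libraries and are not independent replicates.

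Genes of ER-associated degradation did not pass in any of 6 by edgeR. Of the 6, 1 gene, Herpud1, had an unadjusted p below 0.05, against 19.1% of all genes tested. Herpud1, a membrane protein that brings the ubiquitin ligase HRD1 to the retrotranslocation complex, had 271 and 298 counts against 639 and 838, which is 65.8 and 74.5 against 90 and 95.5 CPM. The groups did not overlap. Its log2 fold change was 0.40 ± 0.166 (SE), with an unadjusted p of 0.0318 and an adjusted p of 0.212 by edgeR, and the within-number differences were 0.45 and 0.36. Dnajb11 and Herpud1 thus held the ERSE-II matches shown above with fitted values of -1.28 and 0.40. The 8 genes with an ERSE had log2 values from -0.23 to 0.10, with 6 below and 2 above 0 (4 and 4 after removal of the GC trend), and none passed by edgeR (DESeq2 and limma voom likewise called 0).

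Sel1l, the adaptor of the HRD1 ligase, was at 85.9 and 78.4 against 58.9 and 75.1 CPM, with no overlap, and its log2 value of -0.29 ± 0.182 (SE) did not pass (adjusted p = 0.417, edgeR). Syvn1, which encodes HRD1, was at 43.2 and 32 against 38.4 and 40.7 CPM. Neither the ligase nor its adaptor passed, and the value of Syvn1, 0.07, turned to -0.12 after removal of the GC trend. Edem1, which trims mannose from failed glycoproteins, and Derl1 and Derl2, which form the channel for export, had log2 values of 0.03, 0.02 and 0.00. The 95% intervals of these 3 genes lay between -0.37 and 0.38.

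Translocon genes and the TRAP complex, through which new proteins enter the ER, did not pass in any of 6 by edgeR, and 0 of the 6 had an unadjusted p below 0.05. Sec61a1, the channel subunit, was at 329.6 and 360.8 against 372.7 and 387.2 CPM, with a log2 value of 0.14 ± 0.131 (SE, adjusted p = 0.615, edgeR) that was 0.0055 after removal of the GC trend. Sec61g, a small subunit of the same channel, was at 31.1 and 31 against 21 and 25.1 CPM. Both Hic1 vector libraries were lower for Sec61g, and its log2 value was -0.43 ± 0.244 (adjusted p = 0.372, edgeR). Sec61b, the other small subunit, overlapped between the groups at 167 and 160.9 against 153.2 and 183.8 CPM. Relative to Sec61a1 per kilobase, Sec61g was at 0.258 and 0.235 with the empty vector and at 0.154 and 0.177 with the Hic1 vector.

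Of the TRAP subunits, Ssr1 was at 312.9 and 291.1 against 266.2 and 264.5 CPM, with a log2 value of -0.19 ± 0.133 (SE, adjusted p = 0.483, edgeR). Ssr2 was at 147.1 and 140.2 against 170.6 and 156.8 CPM, with a log2 value of 0.19 ± 0.148 (adjusted p = 0.528, edgeR). The ratio of Ssr2 to Ssr1 per kilobase was 2.63 and 2.69 against 3.59 and 3.32, but after removal of the GC trend the log2 values were -0.04 for Ssr1 and 0.01 for Ssr2, and their difference was not tested. Ssr3 overlapped between the groups, at 294.7 and 241.1 against 244 and 250 CPM.

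**Figure D4:**
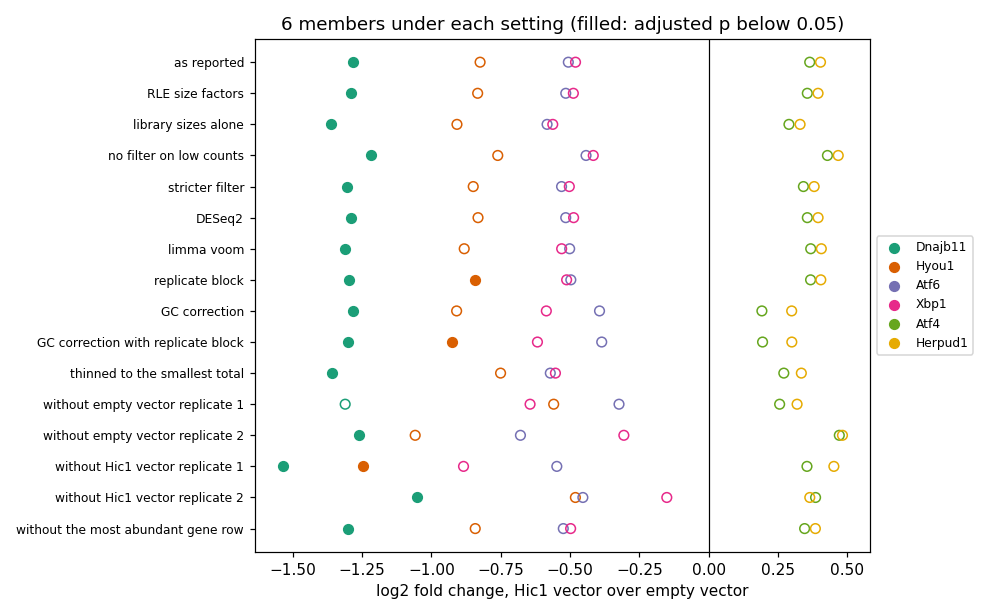
Log2 fold change (x axis) of 6 genes under the reported fit and 15 alternatives (y axis); filled points have an adjusted p below 0.05 and open points do not. Dnajb11 is filled in each row but the one without empty vector replicate 1, and Hyou1 is filled without Hic1 vector replicate 1 and in both rows with the replicate block.

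Related genes in 8 lists that left out the 33, cytosolic chaperones among them, gave no call in the reported fit. Among 178 such genes tested, each counted once, 0 passed by edgeR, 26 had an unadjusted p below 0.05 (16 higher, 10 lower), DESeq2 called 1 (Tmbim6) and limma voom called 0. Of all genes tested 1.82% passed and 19.1% had an unadjusted p below 0.05. The list medians ran from -0.17 for the other isomerases and redox enzymes (13 genes tested) to 0.14 for the ATF4 and CHOP targets (24 tested). They were 0.10 for other ER chaperones (27 tested), 0.08 for other degradation genes (27 tested) and -0.01 for the translocon, signal peptidase and signal recognition particle (28 tested). Medians were 0.02 for the oligosaccharyltransferase (12 tested), 0.01 for sensors and regulators (20 tested) and 0.04 for cytosolic chaperones (29 tested). All 29 cytosolic chaperones and all 12 oligosaccharyltransferase genes lay within 0.5 of 0, against 69.2% of all genes tested. Their median levels were 150.2 and 210 CPM, against 25.6 CPM for all genes tested, and the part of level in this was not tested.

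**Figure D5:**
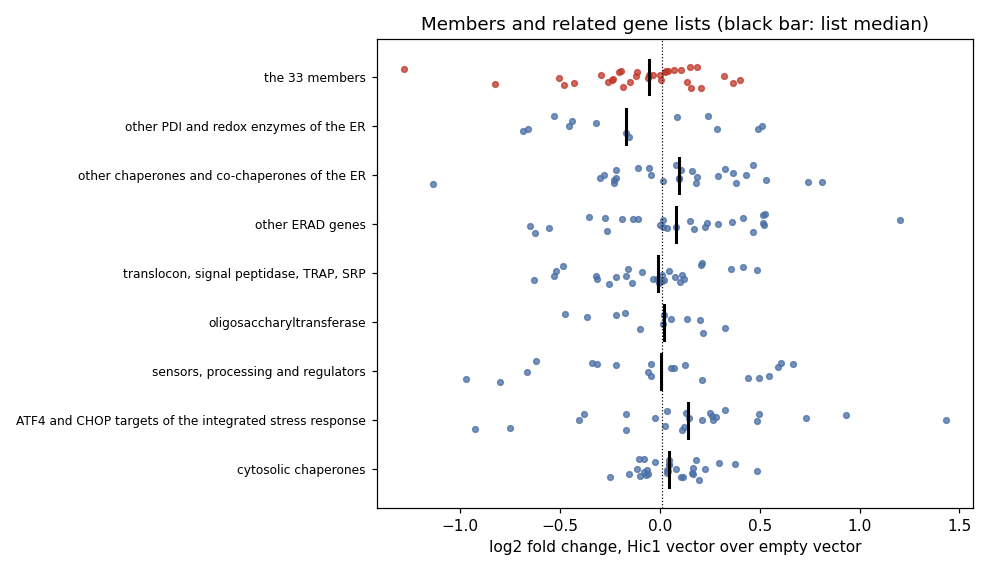
Log2 fold change of the 33 genes (red) and of the genes of 8 related lists (blue), 1 point per gene, with a black bar for each list's median and a dotted line for the median of all genes tested. The medians lie between -0.17 and 0.14, and Dnajb11 is the lowest red point at -1.28.

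The 5 genes of these lists with the lowest p, picked after their values were seen, were on different sides of 0. Os9, a lectin that hands glycoproteins to HRD1, had a log2 value of 0.53 ± 0.142 (SE, adjusted p = 0.0786, edgeR). Tmbim6, an ER membrane protein that restrains IRE1, had a value of 0.61 ± 0.164 (adjusted p = 0.0857, edgeR). Aup1, which recruits a ubiquitin-conjugating enzyme to the degradation complex, had a value of 0.51 ± 0.156 (adjusted p = 0.107, edgeR), and Tram1, a membrane protein next to the translocon, one of -0.53 ± 0.163 (adjusted p = 0.111, edgeR). Mbtps2, the site-2 protease that cleaves ATF6, had a value of -0.97 ± 0.309 (adjusted p = 0.122, edgeR). None of them passed in the reported fit, while Os9, Tmbim6 and Aup1 passed with no filter on low counts and with the replicate block. In these 2 fits 819 of 31962 and 794 of 11676 genes passed in all.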

How the data were processed

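Libraries were 2 with the empty vector and 2 with the Hic1 vector. The authors deposited raw read counts per gene for each library, and their size-normalised table was not used. The submitters' processing notes name the build mm10 and, without role or order, featureCounts 1.5.3, STAR 2.5.2b, DESeq2 1.3.2 and Trimmomatic 0.38. Which annotation release was counted, and whether by strand, is not given in the sources used here. Gene lengths, GC content and coordinates came from GENCODE M21. A gene's length was the union of all its annotated exons, which need not be the length of the transcript expressed. Of 55401 gene rows, 99.5% matched it by identifier and 98.1% also by version. Coordinates were printed only where the version matched (not for Xbp1 and Pdia6).

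Genes with low counts were removed by filterByExpr (minimum count 10, minimum total 15), which left 11676. Library sizes were scaled by TMM, and the quasi-likelihood test of edgeR 4.0.16 was fitted on all 4 libraries. Adjusted p-values are Benjamini-Hochberg over all genes tested. CPM values use the scaled library sizes, and an SE is the log2 fold change divided by the square root of F. Intervals are at 95%. On simulated counts (11281 genes), the test recovered 31 of 88 genes changed 2-fold and 82 of 108 changed 4-fold, with 8 false calls. Changes under 2-fold were not simulated. The changed genes were drawn at random from all genes that passed the filter. The median level was 25.6 CPM over all genes tested and 115.4 CPM for the members, so recovery was not measured for the members themselves.

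The 33 members and the related lists were chosen with earlier results of these data known. Any member could be named. Full statistics were given for members past the threshold, with an unadjusted p below 0.05 or with groups that did not overlap, and for Xbp1, Atf4 and Atf6. In related lists, up to 2 genes per direction past the threshold were to be named. Alternatives were RLE size factors, library sizes alone, no filter, a stricter filter (minimum count 30), DESeq2 1.42.0, limma voom 3.58.1, the replicate number as a block, a GC correction (loess span 0.3) with and without the block, thinning to the smallest total, omission of each library, and removal of the most abundant gene row. Promoter windows came from RefSeq. A search of protein ends was planned and not run.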

Additional observations from a re-analysis of the deposited data

How the results depend on the processing

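Of 495 values of the 33 genes under 15 alternatives, 439 kept direction and side of the threshold, 52 changed sign, 3 came to pass and 1 ceased to; the cause was not tested. The number of genes called, 213 in all, was 418 by DESeq2, 121 by limma voom (27.3% higher), 819 with no filter (56.3% higher), 321 with library sizes alone, 117 after GC correction and 8 to 318 with 1 library left out, the 8 being without empty vector replicate 1. The count of members called, 1 in the reported fit, was 0 to 2 with 1 library left out. It was 0 without empty vector replicate 1, and without Hic1 vector replicate 1 it was 2, Hyou1 at -1.25 (adjusted p = 0.0484) being the added gene. Over these omissions Dnajb11 ran from -1.54 to -1.05 and Hyou1 from -1.25 to -0.48. The members' median, -0.05 in the reported fit, was 0.011 with no filter and 0.0039 after GC correction, -0.13 with library sizes alone and -0.076 with the stricter filter, and ran from -0.089 to -0.028 with 1 library left out. Hic1 itself missed the threshold by limma voom (4.68, adjusted p = 0.0784) and without empty vector replicate 1 (4.62, adjusted p = 0.108), and ran from 4.19 to 5.46 over the omissions.

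With the replicate number as a block, 794 genes passed, and 460 with the GC correction and the block. Members called were then 2 in both, Hyou1 (-0.84 and -0.93, adjusted p = 0.0481 and 0.0465) beside Dnajb11. Across 11676 genes, the deviations of same-numbered libraries from their group means correlated at 0.239, and with 2 pairs this does not establish a pairing.

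Changes of sign were the following. GC correction gave Canx 0.14, Dnajc3 0.015, Hspa5 0.0061, Sec61b -0.15, Ssr3 0.078 and Syvn1 -0.12. GC correction with the replicate block gave Canx 0.14, Dnajc3 0.015, Ern1 -0.031, Hspa5 0.0089, Sec61b -0.15, Ssr3 0.082 and Syvn1 -0.11. Library sizes alone gave Derl1 -0.050, Derl2 -0.069, Edem1 -0.043, Ern1 -0.062, Sec61b -0.032 and Syvn1 -0.0015. With no filter, Canx was 0.029, Creld2 0.0043 and P4hb 0.011. Derl2 was -0.0075 by DESeq2, -0.0075 with RLE size factors, -0.0043 by limma voom, -0.0097 with the block, -0.022 with the stricter filter and -0.0077 after thinning, where Syvn1 was -0.054. Ern1 was -0.0054 by DESeq2, -0.0043 with RLE size factors, -0.015 by limma voom, -0.029 with the block and -0.018 with the stricter filter. Removal of the most abundant gene row, chosen after seeing the data, gave Derl2 -0.017 and Ern1 -0.014. With 1 library left out, ranges were -0.18 to 0.10 for Canx, -0.18 to 0.061 for Creld2, -0.028 to 0.068 for Derl1, -0.19 to 0.18 for Derl2, -0.028 to 0.10 for Edem1, -0.39 to 0.32 for Ern1, -0.25 to 0.021 for Hspa5, -0.12 to 0.36 for Pdia6, -0.62 to 0.13 for Sdf2l1, -0.093 to 0.17 for Sec61b, -0.27 to 0.037 for Ssr3 and -0.14 to 0.31 for Syvn1.

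The 178 related genes had 0 calls in the reported fit, where 213 of all 11676 genes passed. With no filter 6 were called, against 819 of all 31962 genes, and with the block 7, against 794 of 11676. The GC correction with the block called 3, against 460 of 11676. DESeq2 called 1, against 418 of 11676, and limma voom called 0. Os9 and Aup1 were among those called with no filter and with the block, and Tmbim6 in these, by DESeq2, and with the GC correction and block. Calls of related genes in fits with 1 library left out are not given here. The search of protein ends was not run.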
